A study of Mus musculus with 23 samples.

Results

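The 9 genes described here were Apob and 8 genes whose products build, move or edit what Apob encodes: Mttp, P4hb, Tm6sf2, Surf4, Sar1b, Mia2, Sort1 and Apobec1. They were picked by gene name from the 2 tables of liver read counts, 1 per sex, and are 9 of 26522 genes listed in either table and of 22852 listed in both. All 9 had enough reads to be tested in each sex. The series holds 23 bulk RNA-seq samples of whole liver from male and female mice, and its title concerns the loss of hepatic CPT1a and plasma cholesterol. Males made up 5 controls and 6 LKO samples and females 6 of each, where LKO is read from the title as loss of Cpt1a in the liver. Every animal, controls included, carried the B100 genotype, ate a diet labelled WD for 16 weeks and was in the fed state at necropsy. The Cre driver, the Cre status of the controls and the age of the mice are not given in the sources used here. The labels do not state that each library came from a separate animal, so p-values measure only the spread between these samples. Below, a sample is called a liver, a male or a female for short.

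Apob encodes the single large protein around which the liver builds very-low-density lipoprotein (VLDL), the particle that carries triglyceride and cholesterol into blood. The protein is loaded with lipid in the endoplasmic reticulum while it is still being translated, and it is degraded when lipid is short. Loaded particles leave in COPII-coated carriers, pass through the Golgi and are secreted. Mouse liver normally makes a full-length form, apoB100, and a shorter form, apoB48, because APOBEC1 deaminates 1 cytidine of the Apob mRNA and turns a glutamine codon into a stop codon. B100 mice carry an engineered change at that codon and make apoB100 alone. The labels name the genotype and do not describe the allele.

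The editing site is shown because it is where Apob and Apobec1 meet and where the B100 genotype acts. The sequence is that of the reference Apob transcript in GENCODE M21, at chr12:8008030-8008089 on the plus strand of GRCm38, and does not come from the mice sequenced. Capitals mark the CAA codon and the 7 bases TGATCAG, the start of the downstream element to which the editing complex binds.
Apob reference: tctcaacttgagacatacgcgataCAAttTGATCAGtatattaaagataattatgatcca
Apob after editing: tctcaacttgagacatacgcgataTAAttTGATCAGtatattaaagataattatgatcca
The change is C6666T, counted from 1 at the first base of the 13934-base transcript and written in DNA letters. It lies in exon 26 of 29, at codon 2179 of 4505, so 48.3% of the coding codons come before it. The transcript holds 93 CAA codons in frame. The motif, CAA then any 2 bases then TGATCAG, searched on the sense strand of spliced transcripts, is present in 184 of 58797 protein-coding transcripts (0.313%), from 89 genes. A match is a description of letters and not an edited site. Read counts per gene show neither the allele nor editing.

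Total counts per sample ran from 14224665 to 19626662. Cpt1a, the targeted gene, encodes the enzyme that lets long-chain fatty acids enter mitochondria. Its CPM, the read count scaled to library size with TMM factors within each sex, was 303 to 431 in control males and 42.2 to 96.8 in LKO males, and 285 to 431 in control females and 61.8 to 86.3 in LKO females. Every LKO sample was below every control of its sex. The LKO mean was 17.6% of the control mean in males and 19.6% in females, and the fall passed edgeR's quasi-likelihood test (adjusted p = 9.97e-05 and 3.69e-08). Of 6 hepatocyte markers 5 were listed and detected in every group, with summed CPM of 44161 to 63094 in control males, 42626 to 57913 in LKO males, 66777 to 77972 in control females and 44080 to 70612 in LKO females. Neither edgeR nor DESeq2 called any of the 5 in LKO against control of either sex, and 1 had an unadjusted p under 0.05 in each. By estimate 2 of 5 were higher in LKO males and 0 of 5 in LKO females, against 52.1% and 51.1% of all genes tested. Median log2 fold changes were -0.18 and -0.26. In a fit of both sexes 0 of 5 were higher (median -0.22), edgeR called 0, and 3 had an unadjusted p under 0.05 (13.9% of all genes did). The part of these markers in the results below was not tested. Control male replicate 4 had both the smallest total and the lowest TMM factor (0.870, against 1.08 at most).

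Levels of the 9 genes were compared with one another on the authors' FPKM, which divides by gene length. P4hb was highest, with group means of 451 to 516 FPKM. Apob, on chr12 at 8027648 to 8066835 of mm39 (ENSMUSG00000020609), had group means of 172 to 187, and Sar1b had 167 to 195. The ranges of Apob and Sar1b overlapped in all 4 groups, so those genes were not separated. Surf4 followed with 84.8 to 98.1, below every Apob and Sar1b sample of its group. Mttp came at 29.1 to 33.1 and Mia2 at 18 to 19.3, and their ranges did not overlap in any group. Apobec1 (5.85 to 8.99) and Sort1 (0.620 to 1.58) were lowest in that order in all 4 groups. Among all genes tested in control males, P4hb stood at the 99.2 percentile of mean FPKM, Apob at the 97.6 and Sort1 at the 33.5.

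Tm6sf2 was the gene whose place in the order moved with sex. Its mean was 21.03 FPKM in control males and 17.7 in LKO males, where its range overlapped that of Mia2 and lay below Mttp. In females the means were 43.9 in controls and 36.9 in LKO. Control females had Tm6sf2 above Mttp in all samples, and in LKO females the ranges of those genes overlapped.

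**Figure D1:**
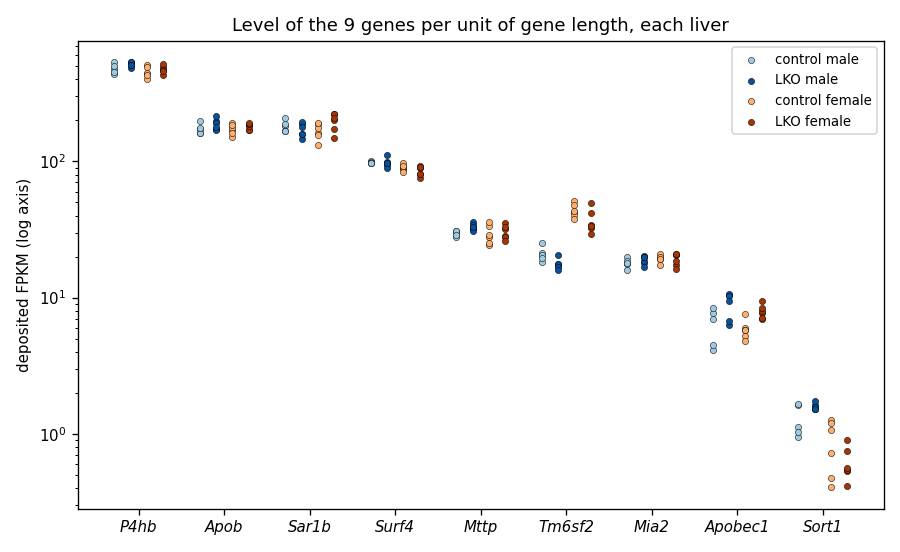
Deposited FPKM of the 9 genes (horizontal axis) in each of the 23 samples, on a log axis. Each point is 1 sample and the groups are set apart by colour. P4hb lies at the top with means of 451 to 516, Sort1 at the bottom with 0.620 to 1.58, and Tm6sf2 lies higher in females than in males.

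LKO livers were then compared with controls of the same sex. By edgeR none of the 9 genes passed the test in males or in females. In males edgeR called 0 of 9 at an adjusted p under 0.05, where 0.00724% of 13805 genes tested were called, and 3 of 9 had an unadjusted p under 0.05 (12.5% of all genes tested). DESeq2 also called 0 of 9 in males, with 1.45% called among the genes to which it gave an adjusted p. In females edgeR called 0 of 9 against 1.42% of 13684 genes, and 1 of 9 had an unadjusted p under 0.05 (15.6% of all). DESeq2 called 1 of 9 in females, Apobec1, against 3.64%. For none of the 9 did the LKO and control ranges lie apart in either sex, against 1.77% of genes in males and 1.59% in females. The median log2 fold change of the 9 genes was 0.11 in males and 0.07 in females, and that of all genes tested was 0.01 and 0.0051. Because these are bulk samples, fewer cells of a type and less RNA per cell cannot be told apart.

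**Figure D2:**
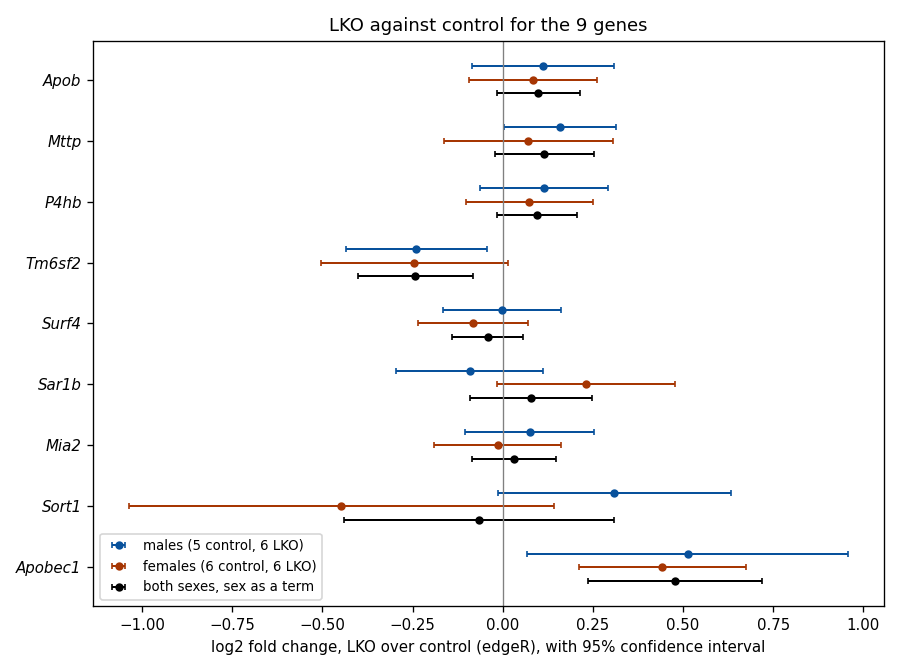
Log2 fold change of LKO over control from edgeR for each of the 9 genes, in males, in females and in both sexes together, with bars for 95% confidence intervals. Estimates run from -0.45 to 0.51, and no gene passed the adjusted threshold in any of these comparisons.

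**Figure D3:**
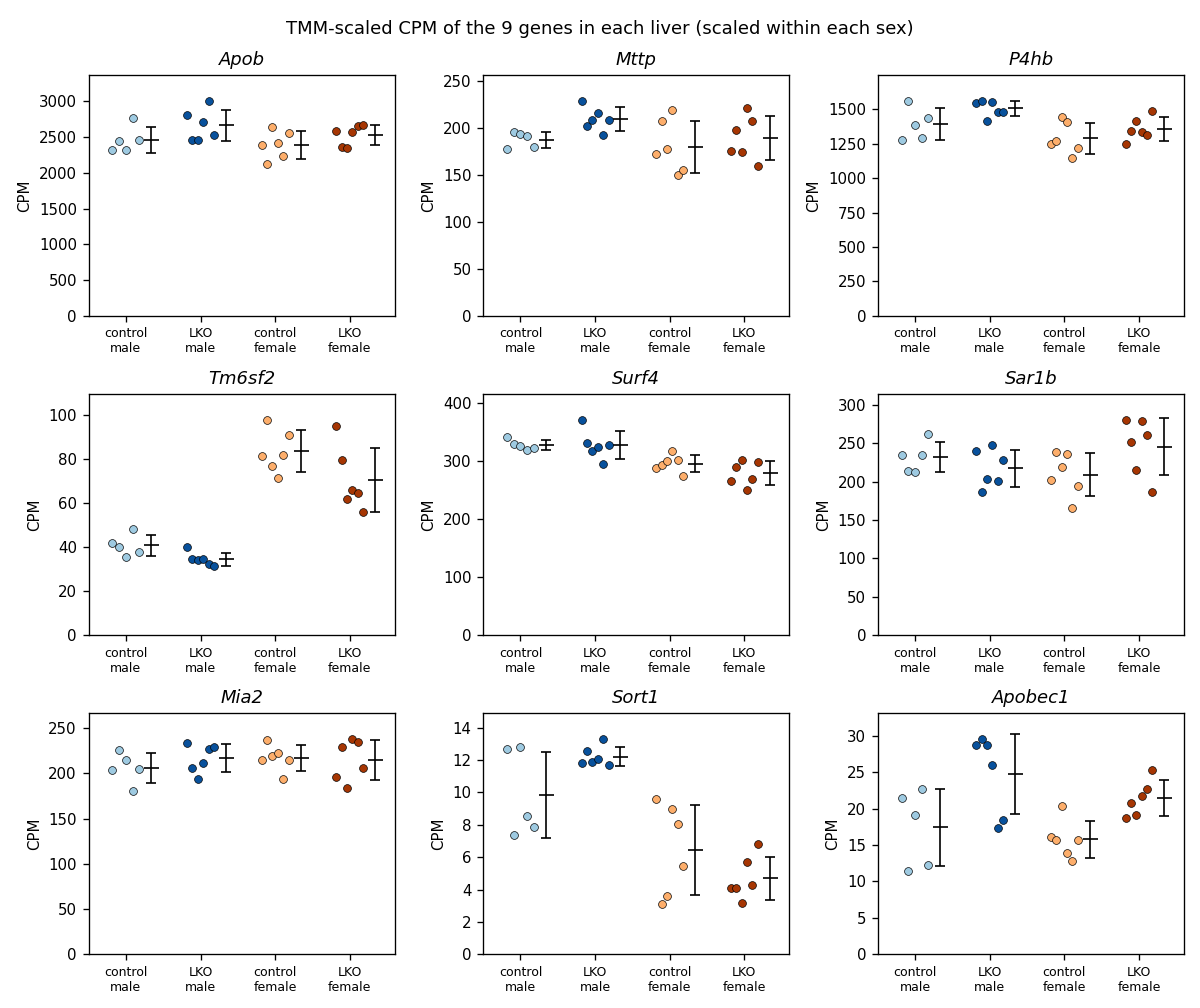
TMM-scaled CPM of each of the 9 genes in every sample, with 1 panel per gene and 1 point per sample. The 4 groups stand side by side with the mean and SD of each group. LKO and control points of the same sex overlap in all 9 panels.

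Apob mRNA was measured closely. Its CPM was 2321, 2448, 2322, 2764 and 2456 in control males, and the LKO males had a lowest value of 2456, a median of 2617 and a highest of 3009. Of the LKO males 4 of 6 lay above the control mean and 2 above every control. In females the controls ran from 2116 through a median of 2397 to 2641, and the LKO livers from 2345 through 2578 to 2669. Again 4 of 6 lay above the control mean, and the ranges overlapped. The log2 fold change was 0.11 (SE 0.091, edgeR adjusted p = 0.659) in males and 0.08 (SE 0.083, edgeR adjusted p = 0.690) in females. With both sexes in 1 fit it was 0.10 (SE 0.056, edgeR adjusted p = 0.446), a fold of 1.07 with a 95% interval of 0.988 to 1.16. The standard error in that fit was 0.182 for Sort1 and 0.117 for Apobec1, so Apob was more precisely measured than those genes. The lowest standard error of the 9 genes was 0.048, below that of Apob. Without control male replicate 4, the highest control, the male log2 fold change of Apob was 0.16.

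Mttp and P4hb encode the large and small subunits of the microsomal triglyceride transfer protein, which puts lipid onto the nascent Apob protein; P4hb, a disulfide isomerase, also folds many other secreted proteins. Mttp (ENSMUSG00000028158, chr3 137795615 to 137850729, minus strand) had CPM of 177, 196, 193, 191 and 180 in control males. The LKO males ran from 192 through a median of 209 to 229. All 6 LKO males were above the control mean and 5 above every control. The male log2 fold change was 0.16 (SE 0.072, unadjusted p = 0.0446, edgeR adjusted p = 0.386). In females Mttp spread more widely, from 150 to 219 in controls (median 175) and from 160 to 221 in LKO (median 186), with a log2 fold change of 0.07 (edgeR adjusted p = 0.818). The female samples therefore covered each other almost fully for this gene. Mttp overlaps Trmt10a on the opposite strand by 1521 bases, and Trmt10a had 29 to 71 counts per sample. Whether counting used the strand is not given in the sources used here.

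P4hb (ENSMUSG00000025130, chr11 120451124 to 120464079) had CPM of 1274, 1562, 1385, 1294 and 1436 in control males. LKO males ran from 1417 through 1514 to 1562, all above the control mean and none above the highest control. Female controls ran from 1148 through 1259 to 1445 and LKO females from 1244 through 1339 to 1488. The log2 fold change was 0.11 (SE 0.082, edgeR adjusted p = 0.601) in males and 0.07 (edgeR adjusted p = 0.728) in females. Neither subunit passed the test in either sex.

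Tm6sf2, a membrane protein of the early secretory pathway that is needed for full lipid loading of VLDL, had the lowest LKO to control estimate of the 9 in males and in the fit of both sexes. The gene (ENSMUSG00000036151) lies on chr8 at 70525574 to 70532716. Its CPM was 41.7, 40.1, 35.6, 48.3 and 37.5 in control males and ran from 31.1 through 34.2 to 39.9 in LKO males. Of the LKO males 5 of 6 were below every control, and all 6 were below the control mean. Control females ran from 71.5 through 81.6 to 97.6 and LKO females from 55.9 through 65.0 to 95.04. In females 4 of 6 LKO livers were below every control, and 1 LKO liver was above the control mean. The log2 fold change was -0.24 (SE 0.091, unadjusted p = 0.0197, edgeR adjusted p = 0.315) in males and -0.25 (SE 0.122, unadjusted p = 0.0614, edgeR adjusted p = 0.348) in females. As percentages these are -15.4% in males, with a 95% interval of -26.1% to -3.06%, and -15.7% in females, with -29.5% to 0.926%. With both sexes together the value was -0.24 (SE 0.078, unadjusted p = 0.00463, edgeR adjusted p = 0.160). Leaving out LKO female replicate 1 gave -0.30 with an edgeR adjusted p of 0.0386, which is a call, and leaving out control male replicate 4 gave -0.17 in males.

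Surf4, Sar1b and Mia2 act where VLDL leaves the endoplasmic reticulum. SURF4 is a cargo receptor that gathers lipoproteins, SAR1B is the small GTPase that starts the COPII coat, and MIA2 helps load cargo too large for an ordinary COPII vesicle. Surf4 (ENSMUSG00000014867, chr2 26810052 to 26823940) had the lowest coefficient of variation of the 9 genes in control males (2.63%) and control females (4.94%). That was not so in LKO males (7.60%, against 3.75% for P4hb) or LKO females (7.38%, against 5.56% for Apob). Its mean CPM was 327 ± 8.62 (SD, n = 5) in control males and 327 ± 24.8 (n = 6) in LKO males, and 295 ± 14.6 and 279 ± 20.6 (n = 6 each) in females. The log2 fold changes were -0.0014 in males and -0.08 in females (edgeR adjusted p = 0.996 and 0.635). Both 95% intervals lay within a fold of 0.850 to 1.119. In males the sign depended on the scaling, and scaling by library size alone gave 0.05. Surf2 overlaps Surf4 on the opposite strand by 144 bases and had 155 to 322 counts.

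Sar1b (ENSMUSG00000020386, chr11 51654514 to 51682752) had a mean of 232 ± 19.9 CPM (SD, n = 5) in control males and 217 ± 24.3 (n = 6) in LKO males. In females it was 209 ± 27.8 in controls and 246 ± 37.6 in LKO (n = 6 each), with LKO values from 186 through a median of 256 to 280.5. Of the LKO females 4 of 6 were above every control and 1 was below the control mean. The log2 fold change was -0.09 in males and 0.23 in females (edgeR adjusted p = 0.749 and 0.352). Its paralog Sar1a is close in sequence, so how reads were shared between them is uncertain. Mia2 (ENSMUSG00000021000, chr12 59142585 to 59238369) had group means of 206 to 217 CPM. Its log2 fold change was 0.07 in males and -0.01 in females (edgeR adjusted p = 0.773 and 0.961), and the female sign turned under scaling by library size alone (0.03).

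Sort1 encodes sortilin, a Golgi sorting receptor that binds Apob particles. The gene (ENSMUSG00000068747) lies on chr3 at 108191398 to 108268827 and was the scarcest of the 9, with 51 to 213 counts per sample. Control males had CPM of 12.7, 7.37, 12.8, 8.58 and 7.90, and LKO males ran from 11.7 through 11.98 to 13.3. All 6 LKO males lay above the control mean and 1 above every control. Female controls ran from 3.09 through 6.73 to 9.58 and LKO females from 3.17 through 4.21 to 6.83. Of the LKO females 5 of 6 lay below the control mean, and none lay below every control. The log2 fold change was 0.31 (SE 0.150, edgeR adjusted p = 0.420) in males and -0.45 (SE 0.276, edgeR adjusted p = 0.469) in females. Its standard error in females was the largest of the 9 genes, and its female 95% interval, a fold of 0.488 to 1.10, alone reached a 2-fold difference.

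Apobec1, the editing enzyme, had the highest estimate of the 9 genes in both sexes. The gene (ENSMUSG00000040613) lies on chr6 at 122554751 to 122579403, minus strand. Control males had CPM of 21.5, 11.4, 19.2, 22.7 and 12.3, and LKO males ran from 17.4 through 27.3 to 29.6. Of the LKO males 5 of 6 lay above the control mean and 4 above every control. Female controls ran from 12.9 through 15.7 to 20.4 and LKO females from 18.8 through 21.3 to 25.4. All 6 LKO females lay above the control mean and 4 above every control. The log2 fold change was 0.51 in males (SE 0.206, unadjusted p = 0.0271, edgeR adjusted p = 0.341) and 0.44 in females (SE 0.109, unadjusted p = 0.00103, edgeR adjusted p = 0.0588). The female fold was 1.36 with a 95% interval of 1.16 to 1.60. DESeq2 put the female difference past the threshold (log2 fold change 0.44, adjusted p = 0.0143). The authors' deposited log2 fold change and adjusted p equal these DESeq2 values to the digits given. They rest on the same counts and are not a separate result. By edgeR the adjusted p ran from 0.0182, without control female replicate 3, to 0.136 when samples were left out in turn. Scaling by library size alone gave 0.49 with an edgeR adjusted p of 0.0499995, just under the threshold, and the fit of all 23 samples gave an adjusted p of 0.214.

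Proteins that work with APOBEC1 on the Apob mRNA were read beside it. A1cf, which encodes its main RNA-binding partner, had a log2 fold change of 0.31 in males and 0.32 in females (edgeR adjusted p = 0.457 and 0.502). Rbm47, a further cofactor, had -0.05 in males, with a sign that turned under scaling by library size alone (0.017), and Syncrip had -0.07 in females. None of these 3 genes was called by edgeR or DESeq2 in males, in females or in both sexes, and A1cf in both sexes alone had an unadjusted p under 0.05 (0.0349). Macrophages are known to express Apobec1 as well. Of 7 Kupffer cell and macrophage markers, edgeR called 2 higher in LKO females, where 1.42% of all genes tested were called. DESeq2 called the same 2, against 3.64%. These were Gpnmb with a log2 fold change of 3.22 and Trem2 with 1.32 (edgeR adjusted p = 0.0026 and 0.0031). By estimate 5 of the 7 were higher in LKO females, while Clec4f and Adgre1 had LKO means at 96.0% and 96.5% of the control mean. In males edgeR and DESeq2 called 0 of 7, and 6 of 7 were higher by estimate. Of the 7, 1 had an unadjusted p under 0.05 in males and 3 in females, where 12.5% and 15.6% of all genes tested did. With both sexes in 1 fit all 7 were higher by estimate, as were 7575 of 14503 genes tested. In that fit 3 of the 7 had an unadjusted p under 0.05 (13.9% of all genes did), and edgeR and DESeq2 called 0. Their summed CPM ran from 379 to 633 in control females and 511 to 673 in LKO females, and from 247 to 489 and 381 to 610 in males. None of the 7 was at 0 in any group. Markers of other cell types were called in LKO females too, Cela2a by edgeR and DESeq2, and Fabp2 and Col3a1 by DESeq2 alone. The shares of all genes called are those above, 1.42% by edgeR and 3.64% by DESeq2. Fabp2, 1 of 2 enterocyte markers listed, had a log2 fold change of 0.54 (edgeR adjusted p = 0.0592) and Col3a1, 1 of 5 stellate cell and fibroblast markers, had 0.74 (edgeR adjusted p = 0.125), and DESeq2 called both. Summed CPM ran from 120 to 195 in control and 164 to 271 in LKO females for the enterocyte markers. Nearly all of that sum was Fabp2, at 119 to 195 and 164 to 271, so it adds little to the Fabp2 value. For the stellate markers the sums ran from 176 to 228 and 172 to 333. Cela2a, 1 of 3 pancreatic acinar markers, fell by 1.74 (edgeR adjusted p = 0.0330), with summed CPM of that list from 0.811 to 1.94 in control and 0.145 to 0.658 in LKO females, and Prss2 at 0 in control females. The part of these markers in the Apobec1 values was not tested.

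**Figure D4:**
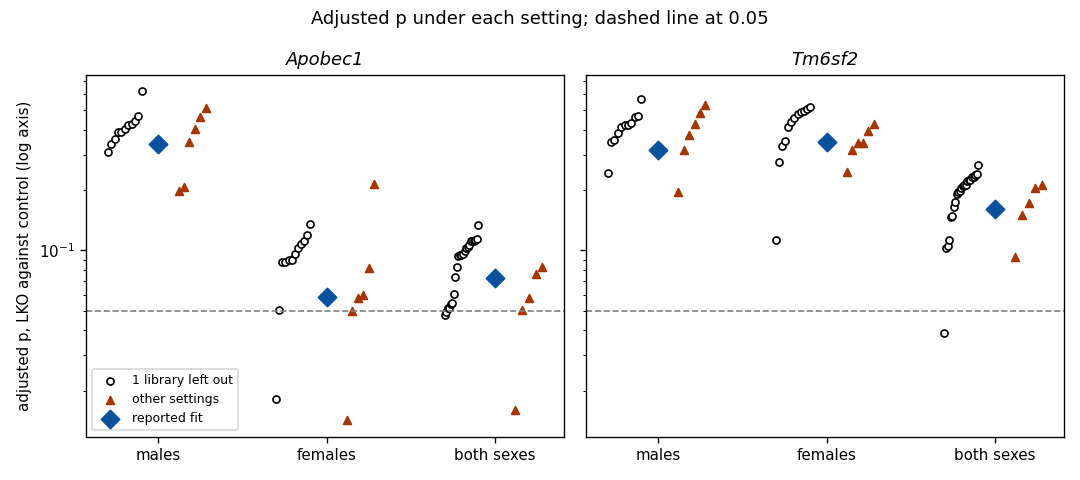
Adjusted p of LKO against control (log axis) for Apobec1 and Tm6sf2, in males, in females and in both sexes together. Points are the reported fit, the other processing settings and the fits with 1 library left out, with a dashed line at 0.05. Apobec1 has points below the line in females, among them DESeq2 (0.0143), and in both sexes, among them DESeq2 (0.0160). Tm6sf2 has 1 in both sexes, without LKO female replicate 1 (edgeR, 0.0386).

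An exact 2-sided permutation test of log2(CPM + 1) was run for each of the 9 genes in each sex. None of the 18 tests had an adjusted p under 0.05. The lowest exact permutation p-values were 0.0108 for Mttp in males, over 462 splits, and 0.00649 for Apobec1 in females, over 924 splits, each 0.0974 after adjustment over the 18 tests.

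With both sexes in 1 fit and sex as a covariate, edgeR called 0 of 9 genes, where 0.365% of 14503 genes were called. Apobec1 and Tm6sf2 had unadjusted p under 0.05 (13.9% of all genes did), and DESeq2 called 1 of 9, Apobec1, against 1.62%. The Apobec1 log2 fold change was 0.48 (SE 0.117, edgeR adjusted p = 0.0724, DESeq2 adjusted p = 0.0160). It passed the edgeR threshold without LKO female replicate 1 (adjusted p = 0.0474) and without control female replicate 3 (adjusted p = 0.0492). The other 7 genes had values between -0.07 for Sort1 and 0.11 for Mttp.

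Whether the LKO effect differed between the sexes was tested as an interaction. No gene was called by edgeR (0.0% of 14503), 12.9% had an unadjusted p under 0.05, and DESeq2 called 72 genes, or 0.532%. Of the 9 genes edgeR called 0, DESeq2 called 0, and Sort1 and Sar1b had an unadjusted p under 0.05. Sort1, with a positive estimate in males and a negative one in females, had a difference of -0.76 (SE 0.334, unadjusted p = 0.0331, edgeR adjusted p = 0.353). Sar1b had 0.32 (unadjusted p = 0.0459, edgeR adjusted p = 0.379). For Apobec1 and Tm6sf2 the interaction was -0.07 and -0.0057 (edgeR adjusted p = 0.929 and 0.993), with 95% intervals of 0.678 to 1.34 and 0.793 to 1.25 as folds.

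Between females and males Tm6sf2 stood apart. Sex coincides with the deposited table and the labels give no batch, so sex and table cannot be told apart. Tm6sf2, on CPM scaled over all 23 samples, ran from 34.8 through 39.7 to 48.0 in control males and from 72.7 through 82.3 to 98.7 in control females. All 6 control females were above every control male. Its level was 2.10 times higher in females (95% interval 1.80 to 2.45, log2 1.07, SE 0.103, edgeR adjusted p = 2.7e-05), and with each sample left out in turn the log2 value stayed between 1.02 and 1.14. It was the 1 gene of 9 called, where 18% of 13699 genes were called, and the 1 of 9 whose ranges lay apart, where 10% of genes did. DESeq2 also called 1 of 9 in this comparison, against 18.2%. By edgeR 3 of the 5 hepatocyte markers and 3 of the 7 macrophage markers were called between control females and males as well, and their part in the Tm6sf2 difference was not tested. Apob had a log2 difference of -0.0083 (edgeR adjusted p = 0.964) and Mttp -0.02 (adjusted p = 0.912).

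The same comparison among LKO livers was added after the values had been seen. Tm6sf2 was again higher in females, by 1.06 on the log2 scale (SE 0.118, edgeR adjusted p = 2.76e-05), from 57.0 through 65.9 to 95.05 CPM against 30.7 through 33.6 to 39.5 in LKO males. Sort1 had a female to male log2 difference of -1.34 among LKO livers (SE 0.154, edgeR adjusted p = 3.87e-05), and all 6 LKO females lay below every LKO male. In controls the Sort1 value was -0.58 (SE 0.286, edgeR adjusted p = 0.176), and the interaction above, which is the difference between these values, was not called. The 2 of 9 genes called compare with 12.4% of 13778 genes, and ranges lay apart for 2 of 9 against 6.05%.

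A further 60 genes of the pathway were read in 5 lists. In males edgeR called 0 of 60, against 0.00724% of all genes tested, and 7 had an unadjusted p under 0.05, against 12.5%. DESeq2 called 1 in males, Ces1g, against 1.45%. In females edgeR called 2 of 60, both lower in LKO livers, against 1.42% of all genes. DESeq2 called those and Ubxn4, against 3.64%. An unadjusted p under 0.05 was found for 16 of 60 in females, 12 of them lower, against 15.6% of all genes. With both sexes together edgeR called 0 of 60, against 0.365%, and 6 had an unadjusted p under 0.05, against 13.9%. DESeq2 called 1 in that fit, Derl2, against 1.62%. Sec23b, which encodes an inner COPII coat protein, fell by 0.49 on the log2 scale in LKO females (SE 0.108, edgeR adjusted p = 0.0384), from 33.7 ± 4.69 to 23.99 ± 3.30 CPM (SD, n = 6 each). Derl2, a channel component through which misfolded proteins leave the endoplasmic reticulum for degradation, fell by 0.40 (SE 0.081, edgeR adjusted p = 0.0256), from 119 ± 5.68 to 90.6 ± 10.8 CPM (n = 6 each). Its LKO values all lay below every control, though narrowly, with a highest LKO value of 110.0 and a lowest control of 110.6 CPM. Ranges lay apart for 1.59% of all genes tested in females. With samples left out in turn, the log2 fold change ran from -0.55 to -0.43 for Sec23b and from -0.45 to -0.36 for Derl2, while the adjusted p crossed the threshold. The Sec23b call was lost without control female replicate 1, 3, 4 or 5 or LKO female replicate 1, 2, 4 or 6 (edgeR adjusted p up to 0.0932). That of Derl2 was lost without control female replicate 5 or 6 or LKO female replicate 2, 3 or 4 (edgeR adjusted p up to 0.0686).

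Among 14 genes of VLDL lipidation and lipid supply, edgeR called 0 in either sex, and 4 of 14 estimates were above 0 in each, where 52.1% of all genes tested were above 0 in males and 51.1% in females. The medians were -0.06 and -0.12. Ces1g, a carboxylesterase of lipid turnover, had CPM of 106 to 138.5 in control males and 157 to 185 in LKO males. These ranges did not overlap, as for 1.77% of all genes tested in males. Ces1g did not pass edgeR (log2 0.51, adjusted p = 0.149), while DESeq2 gave an adjusted p of 8e-05. Pla2g12b, needed for VLDL lipid loading, had -0.31 in males. Lpin1, a phosphatidate phosphatase, had -1.02 in females (edgeR adjusted p = 0.208, and 0.0217 without LKO female replicate 5). Aadac, a microsomal lipid hydrolase, had -0.29 (edgeR adjusted p = 0.146, and 0.0437 without LKO female replicate 1). In the list of 24 COPII, large-cargo and ER to Golgi genes, 18 estimates were above 0 in males and 9 in females, with medians of 0.12 and -0.05. Gosr2, a Golgi SNARE, had 0.21 in males. Sec23a, the paralog of Sec23b, had 0.18 in males and 0.25 in females, neither called, so its female estimate was opposite in sign to that of Sec23b.

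Of the 11 folding and translocation partners edgeR and DESeq2 called 0 in either sex. An unadjusted p under 0.05 was found for 1 in males and 3 in females, against 12.5% and 15.6% of all genes tested. The chaperone gene Hspa5 had a log2 fold change of -0.48 in females (edgeR adjusted p = 0.144). Subunits of the SEC61 translocon were at -0.25 (Sec61b) and 0.15 (Sec61a1) in males and -0.30 (Sec61a1) in females, where Sec61a1 passed edgeR without LKO female replicate 6 (adjusted p = 0.0403). Among 8 genes of ER-associated degradation, all 8 estimates were below 0 in females with a median of -0.18, and 4 of 8 in males with a median of 0.06. Ubxn4, which tethers the extraction complex to the membrane, had -0.30 in females (edgeR adjusted p = 0.0632, DESeq2 adjusted p = 0.00972), and passed edgeR without LKO female replicate 6 (adjusted p = 0.0335). Nploc4, an adaptor of the same complex, had 0.19 in males (edgeR adjusted p = 0.313). All genes tested had a median of 0.01 in males and 0.0051 in females.

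**Figure D5:**
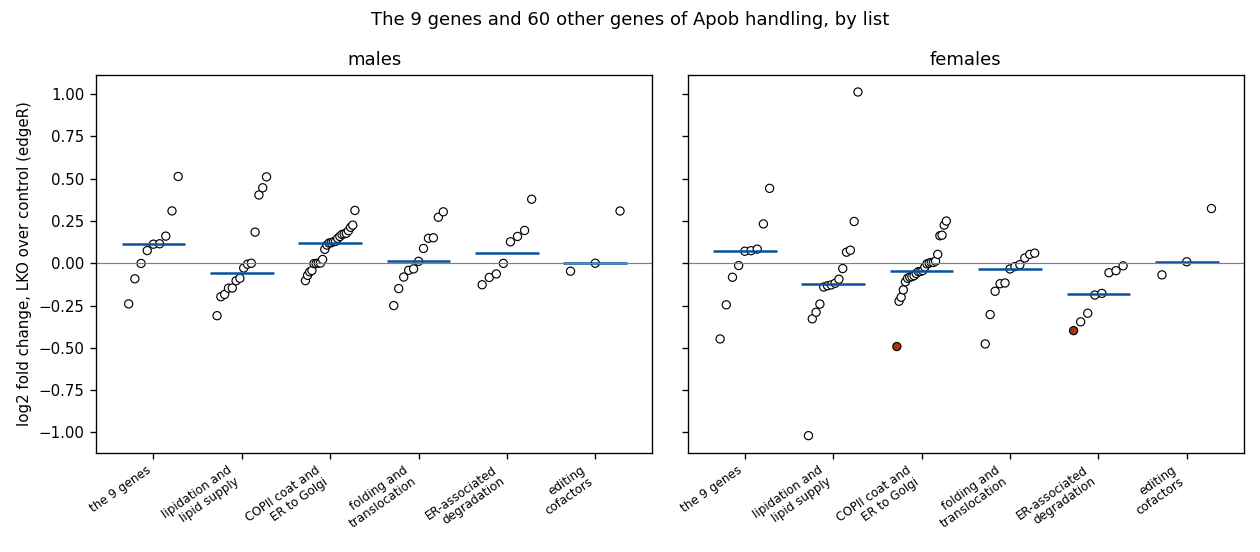
Log2 fold change of LKO over control from edgeR for the 9 genes and the 60 other pathway genes, grouped by list, with males and females in separate panels and 1 point per gene. In females all 8 genes of ER-associated degradation lie below 0, and Sec23b and Derl2 are the called genes.

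To describe which genes tracked Apob from liver to liver, log2(CPM + 1) deviations from the 4 group means were correlated over the 23 samples, which share scaling factors. Of 10133 genes with at least 50 counts on average, the 5 protein-coding genes most like Apob were Ttpa (Pearson r = 0.88), Ube2d3 (0.85), Atp13a3 (0.80), Tdo2 (0.79) and Cd1d1 (0.79). Apob and Mttp had an r of -0.04, and the other members had between -0.18 (Surf4) and 0.23 (P4hb) with Apob. The genes most like Mttp were Abcd3 (0.83), Maco1 (0.83), Mtrr (0.80), Pals1 (0.78) and Gtpbp8 (0.77). Sar1b followed Mttp with 0.70, at rank 33, and Mia2 with 0.61, at rank 127. P4hb had 0.30 with Mttp, at rank 1553, and the remaining members had between -0.15 (Sort1) and 0.09 (Apobec1).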

How the data were processed

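The members and gene lists were chosen with earlier results of these data known. Per the labels' protocols, poly-T beads selected mRNA and libraries used random hexamers and dUTP. HISAT2 2.0.5 and build mm39 are named in the submitters' processing notes; the counter, annotation release and strand setting are not given in the sources used here. The authors deposited raw counts per gene, a normalized signal (counts over a size factor), FPKM, log2 fold changes and p-values per sex. Sequence came from a reference of another build (GRCm38).

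The deposited counts were tested with edgeR 4.0.16 in R 4.3.3 (filterByExpr, TMM, quasi-likelihood test, Benjamini-Hochberg over all genes tested, call at adjusted p under 0.05), each sex alone, then jointly. Females and males were compared on genes listed in both tables. Alternatives were DESeq2 1.42.0, other scalings, no filter, the replicate number as a block, 1 fit of all 23 samples and each sample left out. The exact permutation test used log2(CPM + 1). Named pathway genes were those called in any LKO comparison plus, per list, the 2 with the lowest p in each sex; those of the closing observations were chosen after their values were seen. The value of 1 gene that this rule names is not reported here. Scripts were tested on simulated data. Totals were 14224665 to 19626662 counts per sample, and 0 sample columns were left unmapped.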

Additional observations from a re-analysis of the deposited data

How the results depend on the processing

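Of 1556 alternative values of single genes, 1478 kept direction and side of the threshold, 47 changed sign, 16 lost a call and 15 gained one; where no cause is given below, the cause was not tested. In males 1 gene was called by edgeR; scaling by library size gave 2, no filter 2, DESeq2 107, the replicate block 2, the fit of all 23 samples 5, and single samples left out 1 to 2. In females 194 were called; DESeq2 gave 554, the replicate block 334, the 23-sample fit 94, and samples left out 87 to 233. With both sexes 53 were called; DESeq2 gave 248, the replicate block 23, and samples left out 13 to 143. The interaction called 0; DESeq2 gave 72, and samples left out 0 to 17. The permutation tests called 0, and 0 to 1 with a sample left out (Apobec1 without control female replicate 3, exact permutation adjusted p = 0.0390).

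Counts moved over 1.5 times without single samples: in males control replicate 1 (2); in females control replicates 1, 5 and 6 and LKO replicates 2, 3 and 4 (87 to 116); in both sexes LKO males 3, 4 and 5, control male 4, LKO females 3 to 6 and control females 1, 2, 5 and 6 (13 to 35) and LKO male 1, control male 3 and LKO female 1 (99 to 143); in the interaction control male 4 (17).

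Signs turned for values near 0: Surf4 in males (library size 0.0503, replicate block 0.0251, 23-sample fit 0.00068) and both sexes (library size 0.0029), Mia2 in females (library size 0.0285), Rbm47 in males (library size 0.017) and Apob in the interaction (replicate block 0.0115). The sign of Sar1b by sex also turned, from -0.11 in controls to 0.21 among LKO samples. That compares other samples and is not another processing of the same ones. With samples left out, ranges crossing 0 were Surf4 in males -0.0401 to 0.0274 (permutation test -0.0409 to 0.0250), Mia2 in females -0.0455 to 0.0270 (permutation test -0.0506 to 0.0257), Rbm47 in males -0.155 to 0.0252, Sort1 in both sexes -0.135 to 0.0197, the interaction of Apob -0.0836 to 0.0103, Tm6sf2 -0.111 to 0.0509 and Apobec1 -0.192 to 0.0383, and the control sex difference of Apob -0.0385 to 0.0388, Mttp -0.0931 to 0.0269 and Apobec1 -0.234 to 0.0101.

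The labels give the replicate numbers no shared origin, and they were not taken to pair the samples because not every pair passed a correlation of 0.1: deviations of same-numbered samples correlated above 0.1 in 1 of 5 male pairs (-0.39 to 0.42) and 5 of 6 female pairs (-0.0068 to 0.20), and 1 of 5 and 4 of 6 correlated best with their own number. Apobec1 in females reached an edgeR adjusted p of 0.214 in the 23-sample fit. Sec23b and Derl2 lost their female calls there too, and Sec23b also under library size alone (0.0600). Sort1 had 51 to 213 counts per sample, the fewest of the 9 genes, and a coefficient of variation of up to 43.4% in a group.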

Other observations

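Pathway genes were also compared between the sexes among LKO livers alone, a comparison picked after its values had been seen, in which sex and deposited table cannot be told apart. Of the 60 genes, 13 were called lower and 1 higher by edgeR in LKO females against LKO males, where 897 of 13778 genes tested were lower and 811 higher (12.4% called). In control females against control males 9 were lower and 6 higher, where 1260 of 13699 were lower and 1206 higher (18% called). In ER-associated degradation 1 of 8 was called lower among controls and 5 of 8 among LKO livers: Syvn1, a ubiquitin ligase, by a log2 value of -1.16 (edgeR adjusted p = 0.0287), Ubxn4 by -0.60 (0.0017), Vcp, the extracting ATPase, by -0.43 (0.0059), Nploc4 by -0.41 (0.00608) and Ufd1 by -0.34. Controls had Vcp at -0.34 (edgeR adjusted p = 0.0272) and Syvn1 at -0.43 (0.125). In the COPII and ER to Golgi list 3 of 24 were called lower and 2 higher among controls, and 7 lower among LKO livers, among them Sec23b at -0.78 (edgeR adjusted p = 0.0031) and Gosr2 at -0.39 (0.00268). The interaction, which tests the difference itself, called 0 of 60 by edgeR and 1, Ces1g, by DESeq2. Of all genes, 0.0% and 0.532% were called. An unadjusted p under 0.05 was found for 11 of 60, all with a negative value, against 12.9% of 14503 genes, 1013 positive and 861 negative.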
